A study of Homo sapiens with 24 samples.

Results

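The machinery that copies DNA was followed as 45 genes, taken by symbol out of 58721 gene rows in each count table. They were ordered by role into 15 licensing genes, 8 initiation genes, 9 polymerase and primase genes, 8 clamp and Okazaki fragment genes, 4 fork genes and MCM8. The list is defined by function and its rule uses no measured value, but it was chosen with earlier results of these data known. RNA-seq counts came from 24 libraries of A549, an established human lung adenocarcinoma cell line. MYBL2 or FOXM1, a pair of transcription factors of the cell cycle, was knocked down with 25 nM siRNA in 4 libraries each (siMYBL2, siFOXM1), against 4 libraries with control scrambled siRNA (siControl). Both siRNAs were given together in 3 libraries (siBoth) against 3 libraries of their own control (siControl_both), and the dose of each siRNA in the mixture was not stated separately. The last 3 libraries came from cells treated for 24 h with 20 µM FDI-6, a small molecule inhibitor of FOXM1, against 3 libraries labelled Control_FDI6. All groups share the A549 background, so each knockdown or treatment was a transient change in a single cell line.

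Replication is prepared in G1, when the origin recognition complex (ORC1 to ORC6), CDC6 and CDT1 load the MCM2 to MCM7 helicase onto DNA, a step called licensing that geminin (GMNN) blocks. At the start of S phase the kinase CDC7 with its partner DBF4, together with MCM10, CDC45 and the GINS complex, turns the loaded helicase into a moving one. DNA polymerase alpha with primase lays down primers, polymerases epsilon and delta extend them, the RFC loader places the PCNA clamp, and FEN1 and LIG1 finish the lagging strand. CLSPN, TIMELESS, TIPIN and WDHD1 travel with the fork. Many of these genes are transcribed in a wave in late G1 and S phase under E2F factors, whereas MYBL2 and FOXM1 are best known for the later wave of mitotic genes.

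Counts on genes ranged from 16487394 to 30140550 per library, and the 45 members passed the filter on low counts in every comparison. Reads left unaligned made up 7.68% to 10.9% of a library in siBoth and its control and 1.73% to 3.03% elsewhere. The epithelial markers EPCAM, CDH1, KRT8, KRT18 and KRT19 were expressed in every group, while SFTPB, SFTPC and NKX2-1 of alveolar type 2 cells and PTPRC, CD3E and VWF of blood and endothelial cells averaged under 1 CPM (counts relative to the TMM-scaled library size). Of the same lists, NAPSA ranged from 0.539 to 3.03 CPM, PECAM1 from 0 to 2.86, COL3A1 from 0.323 to 6.98 and the fibroblast collagen gene COL1A1 from 4.85 to 57.8 CPM over the libraries. The libraries were described as biological replicates, and the p-values measure the spread between these samples. In such bulk RNA, fewer cells in S phase and less RNA per cell cannot be told apart.

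Promoters are shown first so that the members can be read beside short words known from the promoters of cell cycle genes. RefSeq promoter windows (GRCh38.p14, 250 bases before to 50 after an annotated start) were found for 41 of the 45 members. The words searched on both strands were TTTCCCGC, TTTCGCGC, TTTGCCGC and TTTGGCGC (E2F-type), CCAAT, and TTTGAA or TTCGAA (cell cycle genes homology region, CHR). No word contains another, though matches may share bases. An E2F-type word stood in 22 of the 41 members with a window (53.7%), against 3.99% of all 27305 genes in the table and 3.31% of its 35116 windows. CCAAT stood in 24 members (58.5%) against 39.7% of genes and 34.6% of windows, and a CHR word in 2 members (MCM6 and DBF4, 4.88%) against 19.5% of genes and 16.4% of windows. A match is a description of letters and not a site.

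The 200 bases before the start are printed for 4 members called lower after MYBL2 knockdown, with matches in capitals. They were chosen for the most matches in those bases, so a called member without a match could not be shown. Windows with more than a short stretch in annotated untranslated regions were left out.
GINS2: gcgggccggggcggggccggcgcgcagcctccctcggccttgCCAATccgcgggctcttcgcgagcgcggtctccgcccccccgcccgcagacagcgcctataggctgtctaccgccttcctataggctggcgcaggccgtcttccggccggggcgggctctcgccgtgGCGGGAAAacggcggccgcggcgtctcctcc
MCM10: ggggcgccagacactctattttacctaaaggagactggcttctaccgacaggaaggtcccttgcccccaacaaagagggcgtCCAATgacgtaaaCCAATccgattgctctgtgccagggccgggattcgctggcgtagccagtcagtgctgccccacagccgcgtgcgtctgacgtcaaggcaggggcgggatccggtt
ORC6: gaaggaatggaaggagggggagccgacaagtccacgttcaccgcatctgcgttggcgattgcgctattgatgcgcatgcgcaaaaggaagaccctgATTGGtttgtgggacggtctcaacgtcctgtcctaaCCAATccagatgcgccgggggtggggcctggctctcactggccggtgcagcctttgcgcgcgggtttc
ORC1: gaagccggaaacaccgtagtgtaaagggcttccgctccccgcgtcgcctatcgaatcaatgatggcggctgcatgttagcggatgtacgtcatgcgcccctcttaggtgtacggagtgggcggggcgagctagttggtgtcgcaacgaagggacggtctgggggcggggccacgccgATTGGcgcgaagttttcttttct

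The windows lie at chr16:85688955-85689154 on the minus strand (GINS2), chr10:13161358-13161557 on the plus strand (MCM10), chr16:46689459-46689658 on the plus strand (ORC6) and chr1:52404424-52404623 on the minus strand (ORC1). They precede RefSeq starts, and the GINS2 window lies within the longer GENCODE span of that gene. GINS2 held GCGGGAAA, the reverse complement of an E2F-type word, 31 bases before its start and CCAAT 158 bases before it. MCM10 held CCAAT at 118 and 105 bases, ORC6 held it at 104 (as ATTGG) and 68 bases, and ORC1 held ATTGG 23 bases before the start. Among the other called members, MCM7 held 2 E2F-type words, 187 and 9 bases before a start, and MCM2 held its E2F-type words just after the start.

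The targeted genes checked the labels. MYBL2 stood at 5.27, 8.85, 7.18 and 4.65 CPM in siMYBL2 replicates 1 to 4, against 134 to 182 CPM in siControl (log2 fold change -4.58). In siBoth MYBL2 stood at 6.14, 9.36 and 9.73 CPM against 155 to 189 CPM. FOXM1 stood at 10.2 to 13.2 CPM in siFOXM1 against 108 to 140 CPM, and at 10.1 to 14.8 CPM in siBoth against 124 to 142 CPM. Every knockdown library was below every control library for its target. FOXM1 also fell in siMYBL2, to 58.8 to 91.8 CPM against 109 to 141 CPM (log2 fold change -0.73, adjusted p = 0.00754, edgeR), while MYBL2 in siFOXM1 had a log2 fold change of -0.06 (adjusted p = 0.913). In cells treated with FDI-6, MYBL2 stood at 117 to 154 CPM against 188 to 198 CPM and FOXM1 at 90.1 to 111 CPM against 126 to 131 CPM. MYBL2 fell by 0.51 and FOXM1 by 0.37 on the log2 scale (adjusted p = 0.00105 and 0.004).

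In the siControl libraries the members covered a wide range of levels. Per kilobase of canonical transcript, PCNA was highest at 287 ± 12.2 CPM (SD, n = 4), ahead of the helicase subunit MCM7 at 167 ± 17.1 CPM and the polymerase delta subunit POLD2 at 97.8 ± 3.78 CPM. POLA2, the regulatory subunit of polymerase alpha, was lowest at 1.40 ± 0.0195 CPM per kilobase, below CLSPN at 4.60 ± 0.678 and ORC4 at 5.00 ± 0.291. POLA2 shares 16.8% of its exonic length with another gene on its strand, and the part of ambiguous reads in its level was not tested. These last neighbours, CLSPN and ORC4, overlapped in their libraries. PCNA, MCM7 and POLD2 led and POLA2 was last in siControl_both and Control_FDI6 too. Within the helicase ring, whose 6 subunits act together, the levels per kilobase ran from 26.3 for MCM2 to 167 for MCM7.

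After MYBL2 knockdown the members called lower were 5 licensing and 2 initiation genes. At an adjusted p below 0.05 and a fold change above 1.5 (the call used throughout, from edgeR's quasi-likelihood test over 16065 genes), 7 of 45 members were lower and 0 higher, while 3.52% of all genes tested were lower and 4.38% higher. The 7 were ORC1, GINS2, ORC6, MCM10, MCM2, MCM7 and MCM5. On adjusted p alone, 15 members were lower and 0 higher, against 9.53% and 8.53% of all genes. At an unadjusted p below 0.05, 26 members were lower and 0 higher, and DESeq2 too called no member higher. The share of all genes at that unadjusted threshold was not counted, so the 26 cannot be set against it. The estimate was below 0 for 44 of 45 members, with a median of -0.32 against 0.01 over all genes tested.

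Same-numbered siMYBL2 and siControl libraries deviated together, so the numbers were also used as a block. With the replicate block, 35 members were lower and 0 higher at adjusted p below 0.05, where 23.1% of all genes tested were lower. The same 7 members passed the fold criterion with the block as without it. Counted pair by pair, 37 of 45 members were lower in all 4 pairs, against 27.9% of all genes tested.

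**Figure D1:**
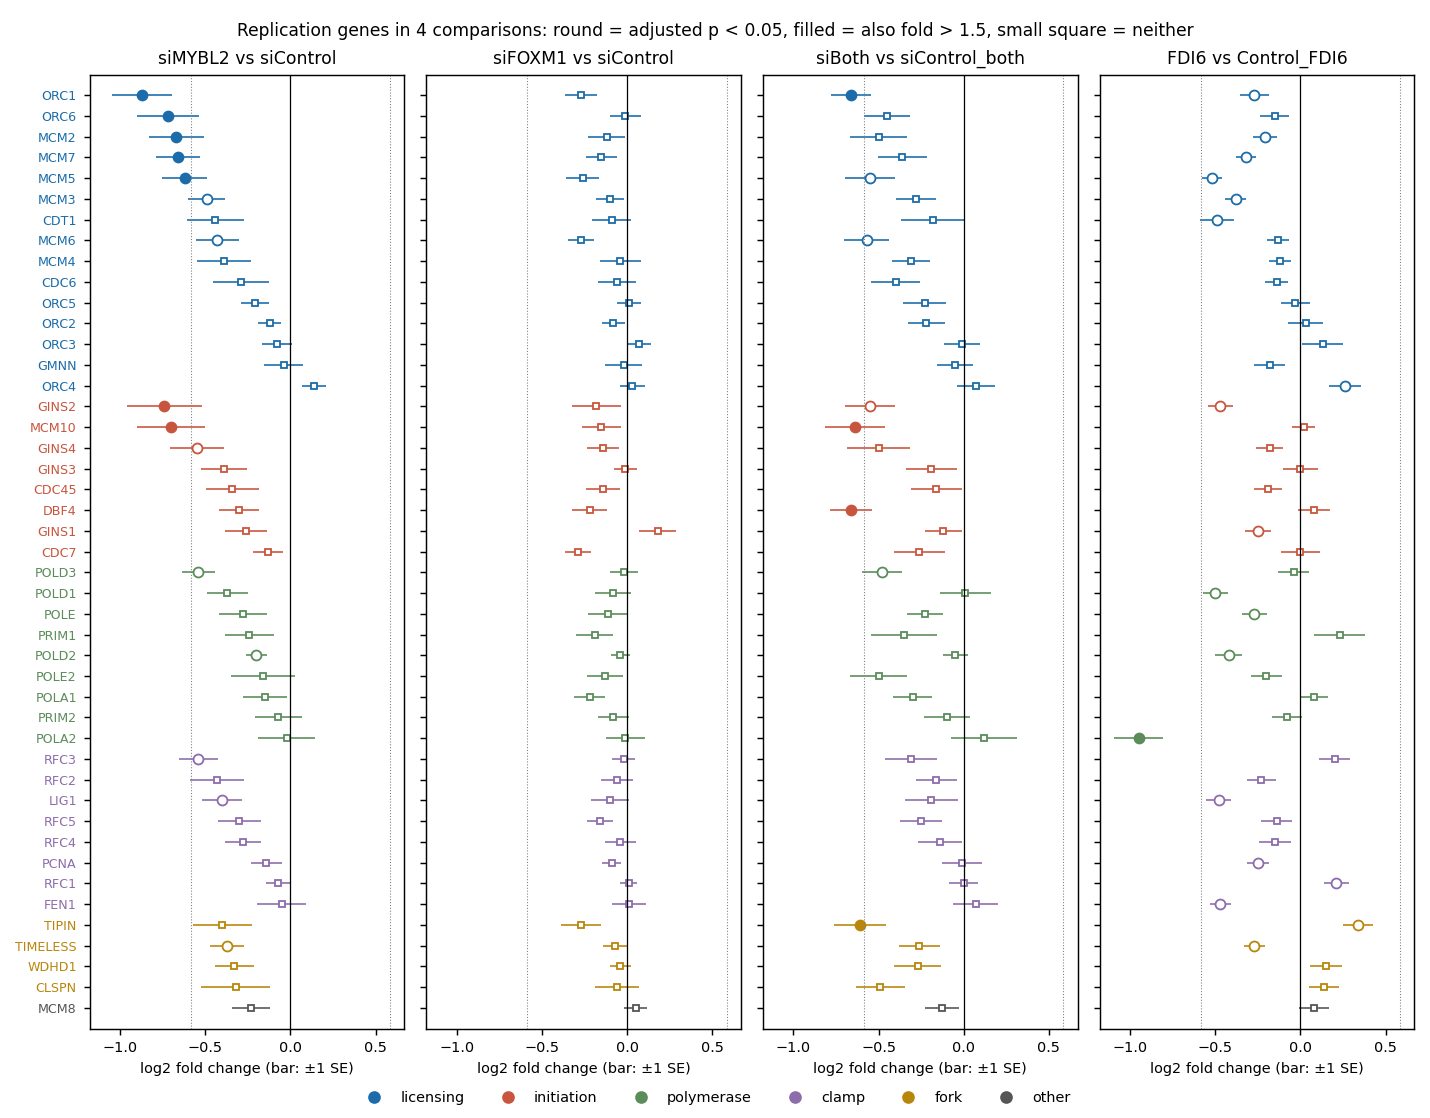
Log2 fold change (x axis, bars ± 1 SE) of the 45 replication genes (y axis, coloured by role and ordered by the siMYBL2 value within a role) in the 4 comparisons. Round symbols passed adjusted p below 0.05, filled ones also a fold change above 1.5, and dotted lines mark that fold. Filled symbols number 7 in siMYBL2, 0 in siFOXM1, 4 in siBoth and 1 with FDI-6.

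ORC1, the origin recognition subunit whose level rises and falls with the cell cycle, fell most. Its level was 15.9, 22.9, 19.9 and 12.6 CPM in siMYBL2 replicates 1 to 4 and 30.7, 32.3, 38.0 and 29.4 CPM in siControl, so the groups did not overlap. The means were 17.8 ± 4.53 and 32.6 ± 3.8 CPM (SD, n = 4), a log2 fold change of -0.87 (SE 0.175, adjusted p = 0.00998, edgeR). ORC1 lies at chr1:52372829-52404423 (hg38) and has 17 exons in its canonical transcript. Gene spans of the other members described library by library follow, in the hg38 build. GINS2 lies at chr16:85676198-85690073, MCM7 at chr7:100092233-100101940, POLD3 at chr11:74493851-74669117, RFC3 at chr13:33818069-33966558 and TIMELESS at chr12:56416363-56449426. POLA1 lies at chrX:24693873-24996986, POLA2 at chr11:65261913-65305959, TIPIN at chr15:66336191-66386746, DBF4 at chr7:87876216-87909553 and CDC7 at chr1:91500851-91525764. MCM6 lies at chr2:135839626-135876443, MCM5 at chr22:35400134-35425431, FEN1 at chr11:61792911-61797238 and RFC5 at chr12:118013588-118033130.

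The origin recognition genes differed in size of change. ORC6 had a log2 fold change of -0.72 (adjusted p = 0.0248), while ORC2 (-0.12), ORC3 (-0.08), ORC4 (0.14) and ORC5 (-0.21) did not pass without the block. With it ORC5 passed (adjusted p = 0.00792), while ORC2 (0.0747), ORC3 (0.257) and ORC4 (0.0609) did not. ORC4 was the only member with an estimate above 0, with log2 ratios of 0.28, 0.00, 0.18 and 0.11 in pairs 1 to 4. The licensing factors CDC6 (-0.29) and CDT1 (-0.44) passed only with the block (adjusted p = 0.000971 and 0.000225), and GMNN (-0.04) passed in neither fit.

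The 6 subunits of the MCM2 to MCM7 helicase ring all had negative estimates, with log2 fold changes from -0.67 to -0.39. MCM7 stood at 241, 308, 287 and 208 CPM in siMYBL2 and 397, 406, 473 and 376 CPM in siControl, a separation of every library (log2 fold change -0.66, SE 0.128, adjusted p = 0.00847). MCM2 (-0.67, adjusted p = 0.0209) and MCM5 (-0.62, adjusted p = 0.0135) were the other subunits called. MCM3 (-0.49, adjusted p = 0.0148) and MCM6 (-0.43, adjusted p = 0.0431) passed adjusted p alone. MCM4 (-0.39, adjusted p = 0.123) passed only with the block (adjusted p = 6.05e-05). An opposite-strand gene covers 23.6% of the exonic length of MCM2, and no source states whether reads were counted by strand.

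Among the initiation genes, GINS2, a subunit of the helicase's GINS part, fell most. It stood at 22.01, 35.7, 30.5 and 16.6 CPM in siMYBL2 against 41.5, 46.7, 50.8 and 35.5 CPM in siControl. The groups touched, since siMYBL2 replicate 2 was just above siControl replicate 4, but each siMYBL2 library was below the control of its own number (log2 fold change -0.74, SE 0.221, adjusted p = 0.0478, and 1.21e-05 with the block). The other GINS genes followed in estimate, with GINS4 at -0.55 (adjusted p = 0.0413), GINS3 at -0.39 and GINS1 at -0.26. MCM10, which helps the helicase to open DNA, had a log2 fold change of -0.70 (adjusted p = 0.0402). DBF4 (-0.30), CDC45 (-0.34), GINS1 and GINS3 passed only with the block (adjusted p = 0.000319, 0.000856, 0.00101 and 0.00142), and the kinase CDC7 (-0.13) passed in neither fit.

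**Figure D2:**
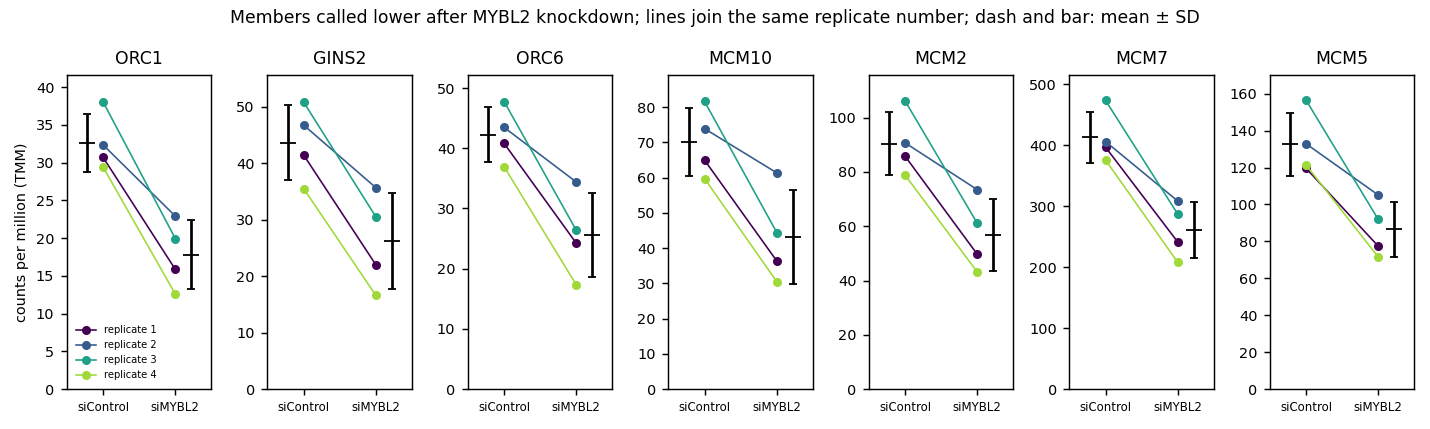
TMM-scaled CPM (y axis, from 0) of the 7 members called lower in siMYBL2, with 1 line per replicate number from siControl to siMYBL2 and the group mean ± SD (n = 4) beside the points. All 28 lines run downward, and the line of replicate 2 is the flattest for each gene.

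No polymerase, clamp or fork gene passed the fold criterion after MYBL2 knockdown, but 5 passed adjusted p alone. POLD3, an accessory subunit of polymerase delta, stood at 33.1, 37.1, 35.7 and 28.0 CPM against 49.6, 46.5, 53.4 and 44.7 CPM, with no overlap (log2 fold change -0.54, SE 0.0988, adjusted p = 0.00686). RFC3, a small subunit of the clamp loader, stood at 41.5, 46.0, 48.9 and 33.5 CPM against 63.1, 61.2, 66.4 and 56.3 CPM, also with no overlap (-0.54, SE 0.114, adjusted p = 0.0122). TIMELESS, of the fork protection complex, stood at 136, 177, 152 and 130 CPM against 181, 208, 199 and 183 CPM (-0.37, SE 0.1, adjusted p = 0.0316). Every treated library of these 3 genes was below every control library. The DNA ligase LIG1 (-0.40, adjusted p = 0.0434) and the polymerase delta subunit POLD2 (-0.20, adjusted p = 0.0491) were the other 2. PCNA (-0.14) passed only with the block (adjusted p = 0.0342), and FEN1 (-0.05) and POLA2 (-0.02) passed in neither fit. MCM8, which is mostly known for repair, had a log2 fold change of -0.23 (adjusted p = 0.195, and 0.00482 with the block) and shares 33.3% of its exonic length with another gene on its strand.

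By role, the median log2 fold change in siMYBL2 was -0.43 for licensing genes, -0.36 for initiation, -0.35 for fork, -0.29 for clamp and -0.20 for polymerase genes. The medians of the roles were not tested against each other. Of the 26 other genes of the pathway, 25 were tested and 4 were called lower with 0 higher (median -0.19). MCM9 (-1.31), TICRR (-0.86), which helps to fire origins, and TOPBP1 (-0.65), its partner, had the largest changes. The 20 mitotic genes kept for reference had a lower median, -0.64, with 11 called lower. They include CCNB1, CDK1, CENPA and CCNA2. The authors had named these genes as targets, by promoter binding and by their fall in the single and double knockdowns of these data. Counts of mitotic genes in the knockdowns are thus partly set by that choice.

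The size of the change varied with the replicate. Over the 45 members the median log2 ratio was -0.46, -0.14, -0.32 and -0.49 in pairs 1 to 4, and 38 members had their smallest fall in pair 2. The library siMYBL2 replicate 2 also held the most MYBL2, 8.85 CPM, and replicate 4, with the largest fall in 28 members, held the least, 4.65 CPM. The part of residual MYBL2 in this spread was not tested. The number of members called was 1 without siMYBL2 replicate 4 (ORC1), 2 without siMYBL2 replicate 1 or without siControl replicate 3, 3 without siControl replicate 2 and 4 without siControl replicate 1, and it was 10 without siMYBL2 replicate 2 or siControl replicate 4. In those last fits the polymerase gene POLD3 and the clamp gene RFC3 were called too, and RFC3 also without siMYBL2 replicate 3. ORC1 was called in each of the 8 fits that left out a library. These fits did not use the block, and the same-numbered partner of the library left out stayed in.

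After FOXM1 knockdown the estimates for the replication genes were small, from -0.29 for CDC7 to 0.18 for GINS1. No member was called in either direction by edgeR or DESeq2, where 0.591% of all 15892 genes tested were called lower and 0.0755% higher. On adjusted p alone edgeR again found 0 members, with 1.09% of all genes lower and 0.277% higher, while DESeq2 found 1. In edgeR 6 members were lower at an unadjusted p below 0.05, where the share of all genes was not counted. The median was -0.08 and 38 of 45 estimates were below 0. The siMYBL2 and siFOXM1 comparisons share the siControl libraries, and CPM values of siControl differ slightly between them because each comparison was scaled by itself.

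The replicate block resolved small changes. With it, 18 members were lower and 1 higher at adjusted p below 0.05, where 14% of all genes tested were lower and 12.3% higher, and no member reached 1.5-fold. MCM6 stood at 94.6, 105, 108 and 96.7 CPM in siFOXM1 and 112, 128, 135 and 112 CPM in siControl (log2 fold change -0.27, adjusted p = 0.155, and 7.72e-07 with the block). Each siFOXM1 library was below every control library for MCM6. Of all members, 22 were lower in all 4 pairs, against 20.5% of all genes tested.

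CDC7 had the lowest adjusted p of the members after FOXM1 knockdown. It stood at 18.2, 17.3, 15.5 and 17.6 CPM against 19.6, 22.1, 21.4 and 21.1 CPM, with no overlap (-0.29, SE 0.0771, adjusted p = 0.117, and 0.000884 with the block). GINS1 was the member on the other side, at 0.18 (adjusted p = 0.551, and 0.000741 with the block).

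In the remaining roles the groups overlapped. POLA1, the catalytic subunit of polymerase alpha, stood at 50.4, 61.9, 56.7 and 51.1 CPM against 60.3, 70.7, 68.0 and 57.7 CPM (-0.22, adjusted p = 0.336, and 0.000105 with the block). RFC5, of the clamp loader, stood at 45.3, 51.5, 48.2 and 44.5 CPM against 54.7, 54.6, 55.9 and 46.8 CPM (-0.16, adjusted p = 0.419, and 0.00728 with the block). TIPIN stood at 22.1, 24.5, 23.8 and 19.2 CPM against 27.2, 29.99, 28.7 and 21.8 CPM (-0.27, adjusted p = 0.377, and 0.00048 with the block). All 3 were lower in each of the 4 pairs. MCM8 was at 86.9 to 101 CPM against 85.5 to 99.7 CPM (0.05, adjusted p = 0.842). None of the 26 other pathway genes was called, and 5 of 20 mitotic genes were, from a list that holds targets named from these same knockdowns.

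**Figure D3:**
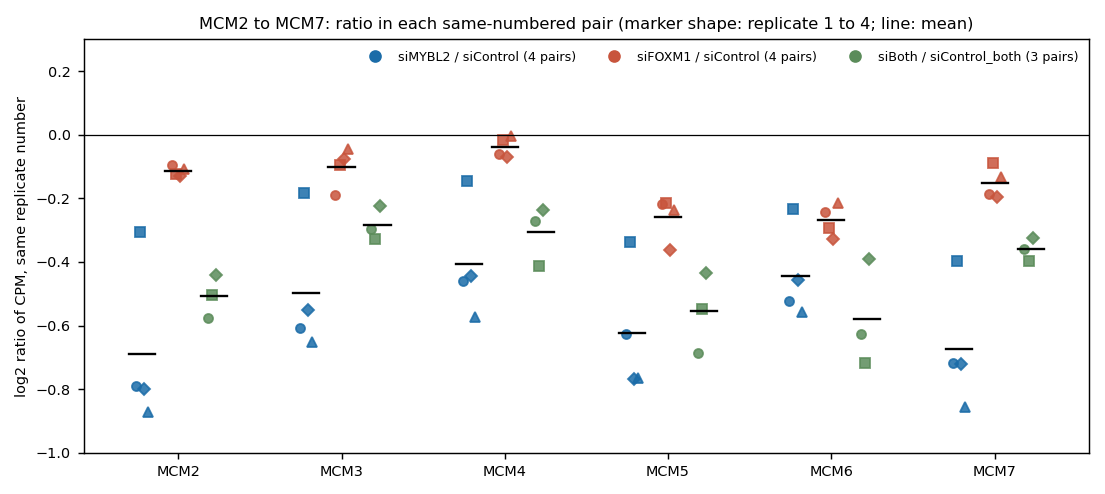
Log2 ratio of CPM between same-numbered treated and control libraries (y axis) for the 6 helicase subunits (x axis) in the 3 knockdowns, with 1 symbol per pair and a line at the mean. Each symbol lies at or below 0, the mean line of siFOXM1 is the nearest to 0 for each subunit, and pair 2 of siMYBL2 (squares) lies above the other siMYBL2 pairs.

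The knockdowns were also set against each other directly, siMYBL2 against siFOXM1 with no control library in the fit. ORC6 (-0.72, SE 0.178, adjusted p = 0.0185) and ORC1 (-0.61, SE 0.168, adjusted p = 0.0282) were lower in siMYBL2, 2 of 45 members where 4.34% of 16172 genes tested were called lower. On adjusted p alone 9 members were lower and 0 higher, against 11.8% of all genes. The others were POLD3 (-0.52), RFC3 (-0.53), MCM7 (-0.51), MCM2 (-0.56), MCM3 (-0.39), ORC5 (-0.22) and GINS1 (-0.45). The share called was near that of all genes. With the replicate block 4 members were called, MCM10 and GINS2 being added, and 29 passed adjusted p alone. In that fit 935 of all 16172 genes were called lower and 1373 higher. On adjusted p alone 3926 genes were lower and 3977 higher. Without siMYBL2 replicate 1 or 4, or siFOXM1 replicate 3, 0 members were called, without siFOXM1 replicate 1 or 2 only ORC6 was, and without siMYBL2 replicate 2 there were 6.

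With both factors knocked down, the members called lower came from the licensing, initiation and fork roles, but these calls depended on the settings of the fit. In siBoth against siControl_both, 4 of 45 members were called lower and 0 higher, where 3.64% of 15812 genes tested were lower and 2.8% higher. They were ORC1, DBF4, MCM10 and TIPIN. On adjusted p alone 8 members were lower and 0 higher, against 7.77% and 4.55% of all genes, the others being MCM6 (-0.57), MCM5 (-0.55), GINS2 (-0.55) and POLD3 (-0.48). At an unadjusted p below 0.05, 18 were lower and 0 higher, and DESeq2 too called none higher. The share of all genes at that unadjusted threshold was not counted. The median was -0.26 against 0.02 over all genes, and 41 estimates were below 0.

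With the replicate block 24 members were lower at adjusted p below 0.05, against 18.5% of all genes tested, and the same 4 passed the fold criterion. The share of reads left unaligned was 9.09% to 10.9% in siBoth and 7.68% to 7.92% in its control, and its part in these values was not tested. In all, 35 of 45 members were lower in each of the 3 pairs, where 30.4% of all genes tested were. The 4 calls were lost with upper-quartile scaling, and without siControl_both replicate 2. The count was 1 without siBoth replicate 1 or 2, 2 without siControl_both replicate 3, 8 without siControl_both replicate 1 and 10 without siBoth replicate 3. After correction for GC content and length, ORC1, MCM2 and MCM5 were the members called.

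ORC1 stood at 18.5, 21.5 and 23.9 CPM in siBoth and 30.8, 35.0 and 34.9 CPM in siControl_both (log2 fold change -0.66, SE 0.118, adjusted p = 0.0119). DBF4, the activating partner of CDC7, stood at 27.6, 22.1 and 29.6 CPM against 39.5, 45.3 and 40.3 CPM (-0.66, SE 0.124, adjusted p = 0.0139). TIPIN, the partner of TIMELESS, stood at 15.5, 16.1 and 20.4 CPM against 21.8, 29.3 and 28.2 CPM (-0.61, SE 0.153, adjusted p = 0.0376). The groups did not overlap for any of the 3, and 21.1% of the exonic length of TIPIN is shared with another gene on its strand. MCM10 had a log2 fold change of -0.64 (adjusted p = 0.0489).

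POLD3 was again first among the polymerase genes, at 29.3, 29.2 and 37.6 CPM against 40.9, 45.9 and 47.4 CPM with no overlap (adjusted p = 0.0372). RFC5 was first of the clamp genes, at 30.2, 30.4 and 35.9 CPM against 32.5, 40.1 and 42.4 CPM with overlap (-0.25, adjusted p = 0.211). MCM8 was at 66.4 to 74.7 CPM against 67.2 to 82.6 CPM (-0.13, adjusted p = 0.419). By role the medians were -0.38 for initiation and for fork genes, -0.31 for licensing, -0.23 for polymerase and -0.15 for clamp genes. Of the 25 other pathway genes tested, MCM9 (-1.10), TICRR (-0.97) and TOPBP1 (-0.62) were called lower. Of 20 mitotic genes 16 were called lower, with a median of -0.99.

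Whether the loss of both factors moved the members further than the loss of MYBL2 alone was tested as a difference of the knockdown effects, each against its own control. No member passed in either direction by edgeR, on adjusted p or at an unadjusted p below 0.05, and 0.176% of 17012 genes did on adjusted p. The differences ran from -0.36 for DBF4 (SE 0.182) to 0.38 for POLD1 (SE 0.207), with a median of 0.07. With standard errors of this size, differences in this range could not be told from 0. With the replicate block POLD1 (0.37, adjusted p = 0.0193) and MCM7 (0.31, adjusted p = 0.0497) passed, both with the higher value in siBoth. In that fit 815 of all 17012 genes tested passed as lower and 385 as higher. Neither POLD1 nor MCM7 passed when GC content and length were corrected as well (adjusted p = 0.0888 and 0.196). FOXM1 itself differed by -2.64 (adjusted p = 7.5e-05).

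With FDI-6 the members that passed the test were lower by small amounts in the main, and a few were higher. By the call used above 1 member, POLA2, was lower and 0 higher, where 5.77% of 15240 genes tested were lower and 8% higher. On adjusted p alone 16 members were lower and 3 higher, against 17.9% and 21% of all genes. The median was -0.15 against -0.01 over all genes. The count of members higher was 1 without FDI6 replicate 2 or any 1 of the 3 control replicates, and 5 without FDI6 replicate 3. The numbers of these libraries did not pair them.

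POLA2 fell most. It stood at 4.37, 5.49 and 5.05 CPM with FDI-6 and 10.2, 8.79 and 9.91 CPM in the control, with no overlap (log2 fold change -0.95, SE 0.145, adjusted p = 0.000441). POLA2 remained called in each of the 6 fits that left out a library. It is the lowest member by level and 16.8% of its exonic length is shared with another gene on its strand. The catalytic partner POLA1 (0.08) and the primase subunits PRIM1 (0.23) and PRIM2 (-0.08) did not pass.

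The next members were lower by less than 1.5-fold. MCM5 stood at 161, 164 and 162 CPM against 225, 241 and 229 CPM (-0.52, SE 0.0596, adjusted p = 6.1e-05). GINS2 stood at 53.0, 49.5 and 48.0 CPM against 71.7, 70.4 and 66.7 CPM (-0.47, SE 0.0747, adjusted p = 0.000535). FEN1, the flap nuclease of Okazaki fragments, stood at 104, 112 and 113 CPM against 151, 153 and 152 CPM (-0.47, SE 0.0638, adjusted p = 0.000182). The groups were fully apart for these 3 genes, with narrow spread. LIG1 (-0.48), POLD1 (-0.50), CDT1 (-0.49), POLD2 (-0.42), MCM3 (-0.38), MCM7 (-0.32), ORC1 (-0.27), POLE (-0.27), TIMELESS (-0.27), GINS1 (-0.25), PCNA (-0.25) and MCM2 (-0.21) were the other members lower.

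TIMELESS, first among fork genes, stood at 181, 177 and 166 CPM against 205, 210 and 218 CPM. Its partner TIPIN went the other way, at 45.7, 38.8 and 39.3 CPM against 33.2, 32.1 and 32.5 CPM (0.34, SE 0.088, adjusted p = 0.00998). ORC4 (0.26, adjusted p = 0.042) and RFC1 (0.21, adjusted p = 0.0348), the large subunit of the clamp loader, were the other members higher. Each of the 3 was higher in every treated library than in any control library. MCM8 was at 87.1 to 108 CPM against 85.7 to 98.1 CPM (0.08, adjusted p = 0.518).

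The change with FDI-6 went with the GC content of the transcript. The 16 members lower had 41.9% to 64.8% GC (median 54.8%), the 3 higher had 37.4% to 41.6%, and the 26 others had 37.7% to 52.6% (median 43.0%). After correction for GC content and length, 18 members were lower and 1, TIPIN, was higher on adjusted p. In that corrected fit 2097 of all 15240 genes tested were lower and 2712 higher. POLD1, POLD2, CDT1, MCM2 and MCM7 no longer passed as lower, nor ORC4 and RFC1 as higher, while CDC6, MCM4, MCM6, GINS4, POLE2, WDHD1 and MCM8 now passed as lower. In all 11 members changed sign, among them ORC4 (0.26 to -0.11), WDHD1 (0.15 to -0.19) and MCM8 (0.08 to -0.22). POLA2 was at -0.86 and TIPIN at 0.31 in that fit. The summed epithelial markers were also lower with FDI-6, at 4230 to 5050 CPM against 7530 to 8180 CPM, with CDH1, KRT8 and KRT18 called lower among the 5 and EPCAM lower on adjusted p alone (-0.47). KRT19 was higher, at 64.0, 71.3 and 76.3 CPM against 55.4, 56.3 and 54.8 CPM (0.35, adjusted p = 0.00549). The 6 markers of other cell types summed to 5.27 to 9.59 CPM with FDI-6 and 18 to 20.4 CPM in the control. The part of either list in these values was not tested.

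**Figure D4:**
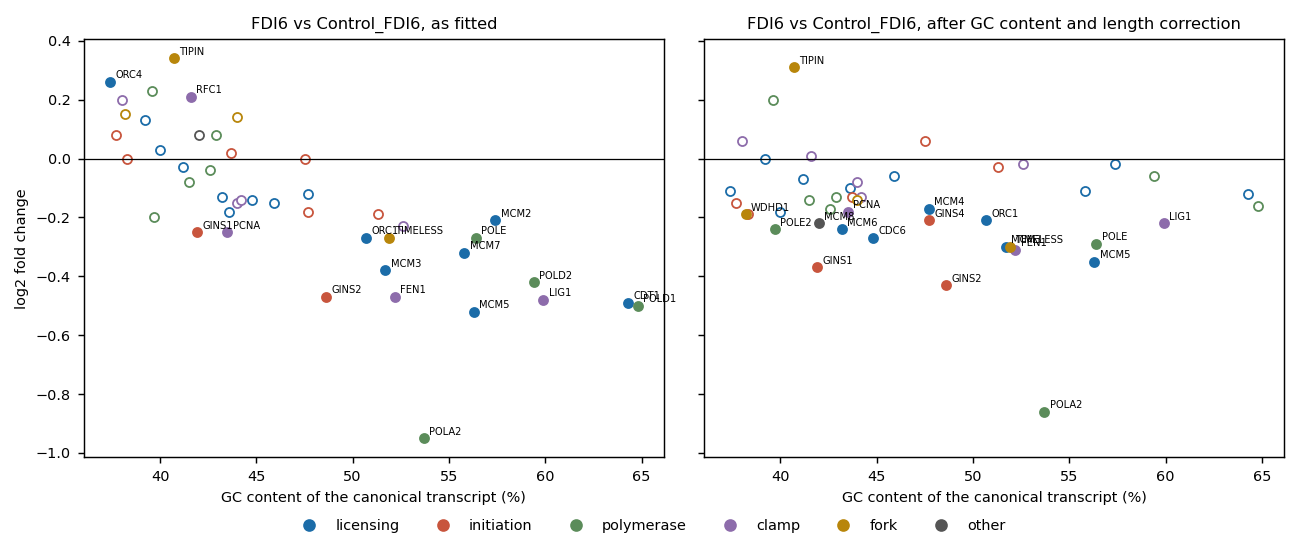
Log2 fold change with FDI-6 (y axis) of the 45 members against the GC content of their canonical transcript (x axis, %), as fitted (left) and after GC content and length correction (right), coloured by role and filled where adjusted p is below 0.05. POLA2 lies at -0.95 and -0.86 and TIPIN at 0.34 and 0.31, while most other points move toward a common level on the right.

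Of the 26 other pathway genes, 2 were called lower with FDI-6 and 1 higher. They were the helicase RECQL4 (-0.70), the RNase H2 subunit RNASEH2C (-0.69) and the topoisomerase TOP1 (0.66). Of the 20 mitotic genes 2 were called lower, with a median of -0.14.

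The effects of FDI-6 and of MYBL2 knockdown, each against its own control, differed for 6 members in the fit without the replicate block. POLA2 was lower with FDI-6 (difference -0.93, SE 0.231, adjusted p = 0.00966), 1 of 45 members where 6.5% of 17167 genes were called lower and 10.1% were lower on adjusted p alone. TIPIN (0.74, adjusted p = 0.0238), RFC3 (0.74, adjusted p = 0.00389) and MCM10 (0.72, adjusted p = 0.0429) were higher with FDI-6, where 8.78% of genes were called higher. POLD3 (0.50, adjusted p = 0.0209) and WDHD1 (0.48, adjusted p = 0.0455) passed adjusted p alone, as 14.6% of genes did in that direction. After GC content and length correction POLA2 (-0.83), RFC3 (0.59) and TIPIN (0.69) still passed, but MCM10 (0.55, adjusted p = 0.144), POLD3 (0.34, 0.0952) and WDHD1 (0.13, 0.617) did not, and ORC1 (0.66), MCM2 (0.67) and MCM7 (0.57) now did. With upper-quartile scaling MCM10, POLD3 and WDHD1 did not pass either (adjusted p = 0.0812, 0.0613 and 0.114). With the replicate block more members passed, and ORC1 (0.63, adjusted p = 0.00205) and ORC6 (0.61, adjusted p = 0.00374) were called higher too. In the block fit 3096 of all 17167 genes were lower and 3676 higher on adjusted p alone. MCM10 was called in 3 of the 14 fits that left out a library, TIPIN in 12, and RFC3 and POLA2 in all 14. The counts were 2 without FDI6 replicate 1 or Control_FDI6 replicate 2 and 8 without siMYBL2 replicate 2. The treatments were each set against a control of their own, so a difference between the control cultures cannot be told apart from one between the effects.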

How the data were processed

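The authors trimmed paired-end reads with Trim Galore, aligned them to hg38 with STAR and counted them per GENCODE gene with HTSeq. The deposited values are raw counts per gene and library, and tool versions and the strand setting are not given in the sources used here. Rows that name no gene were left out. Together they held 18.5% to 26.2% of a library, a share that includes unaligned reads and ambiguous reads (7.88% to 11.2%). Symbols came from GENCODE V44 (58207 of 58721 rows matched). The members and lists were chosen with earlier results of these data known.

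Each comparison was fitted with edgeR 4.0.16 (R 4.3.3) on its own libraries, with TMM scaling, filterByExpr and the quasi-likelihood test, Benjamini-Hochberg adjusted over all genes. SE is the log2 fold change over the root of F. Effects were compared by the interaction term. Same-numbered libraries correlated at 0.524 or more in the knockdowns (deviations from group means) and at -0.29 to 0.16 with FDI-6, so numbers pair the knockdowns. Libraries of a group differed beyond counting noise (chi-square per gene from 3.57). Genes given with values in every library were MYBL2, FOXM1 and, per role, the called members with the largest fall and rise, or else the lowest adjusted p. MCM7 in siMYBL2 and TIPIN with FDI-6 were added after their values were seen. Scripts were tested on simulated data. Alternatives were DESeq2 1.42.0, other scalings and filters, the block, a GC content and length trend, and leaving out each library without the block.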

Additional observations from a re-analysis of the deposited data

Results flagged for a closer look

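For 6 members the effect of FDI-6 differed from that of MYBL2 knockdown in the edgeR test of the difference itself. That fit had no replicate block, and with the block more members passed. Without it the differences were -0.93 for POLA2, 0.72 for MCM10, 0.74 for RFC3, 0.74 for TIPIN, 0.50 for POLD3 and 0.48 for WDHD1 on the log2 scale. In the fit without the block 10.1% of all 17167 genes were lower and 14.6% higher on adjusted p alone, so such differences were not particular to the members. MCM10, POLD3 and WDHD1 did not pass after GC content and length correction (adjusted p = 0.144, 0.0952 and 0.617) or with upper-quartile scaling (0.0812, 0.0613 and 0.114). In 7 of 135 sets of 4 libraries, 1 library stood far from the other 3, and chance flags about 1 in 20. ORC4 was at 35.6 CPM in siControl replicate 2 against 31.7 to 32.0, MCM3 at 177 in siControl replicate 3 against 148 to 153, and PCNA at 389 in the same library against 356 to 360. RFC5 was at 47.3 CPM in siControl replicate 4 against 55.1 to 56.7. GINS1 was at 117 and LIG1 at 97.4 CPM in siFOXM1 replicate 3 against 88.9 to 91.5 and 76.3 to 77.3, and RFC4 at 33.1 CPM in siFOXM1 replicate 1 against 39.9 to 40.8.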

How the results depend on the processing

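Counts of members that moved by over 1.5 times follow, and the cause was not tested. In siMYBL2, upper-quartile scaling gave 4 called and 9 on adjusted p, the replicate block 35 lower (35 and 1 higher with GC correction). In siFOXM1, the block gave 18 lower and 1 higher, with or without GC correction, and DESeq2 1. In siBoth, upper-quartile scaling gave 0 called and 3 on adjusted p, no filter 15, the block 24, GC correction 5 and both 27 and 1 higher. With FDI-6, 1 member was higher under upper-quartile scaling, no filter, the block, GC correction, both and DESeq2. For siMYBL2 against siFOXM1, upper-quartile scaling and GC correction left 1 called, the block 4, with 29 on adjusted p (29 with GC correction) and 14 in a single fit of 12 libraries. The siBoth difference gave 2 with the block, POLD1 and MCM7. With GC correction too it gave 1, a different member, RFC3 (adjusted p = 0.0495). The FDI-6 difference gave 10 with no filter, 20 with the block and 21 with both. MCM8 changed sign under GC correction, to 0.05 in siBoth (0.05 with the block) and to -0.22 and -0.23 with FDI-6. Leaving out 1 library gave 1 to 10 called and 5 to 21 on adjusted p in siMYBL2, 0 to 10 and 0 to 10 in siBoth, 1 to 5 higher with FDI-6, 0 to 6 and 2 to 16 in siMYBL2 against siFOXM1, and 2 to 8 and 2 to 13 in the FDI-6 difference. Counts on adjusted p moved by over 1.5 times without siMYBL2 replicate 1 or 4 or siControl replicate 1, 2 or 3 (5, 8, 7, 6 and 6 in siMYBL2), without siBoth replicate 1 or 2 or siControl_both replicate 2 or 3 (2, 2, 0 and 2 in siBoth), without siMYBL2 replicate 1, 2 or 4 or siFOXM1 replicate 1, 2 or 3 (2, 16, 5, 5, 4 and 3 between them), and without siMYBL2 replicate 2, FDI6 replicate 1 or Control_FDI6 replicate 1 or 2 (13, 2, 3 and 3 in the FDI-6 difference). The estimate for MYBL2 in siFOXM1 ran from -0.14 to 0.03. Of all genes called, the share higher went from 43.5% to 59.4% in siBoth and from 57.5% to 38.6% in the FDI-6 difference with upper-quartile scaling, which moved the median of all genes in the latter to -0.13. The median of the members kept its sign in all 4 comparisons under the settings run. All members passed the filter on low counts, but the part of depth in their precision was not tested, and 3 or 4 libraries per group limit the precision of small changes.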
